A study of Mus musculus with 3 samples.

Results

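Transcripts of 10 genes were measured in embryonic mouse mesoderm: Dnmt1, Uhrf1, Dnmt3a, Dnmt3b, Tet1, Tet2, Tet3, Lin28a, Lin28b and Hmga2. They were chosen by symbol, 10 of the 51923 genes in the count matrix, and all 10 had counts in every stage. The study sorted cells of the Mesp1 lineage from C57BL/6 mouse embryos and profiled them by droplet single-cell RNA-seq with the 10x Chromium v3 kit. Every embryo carried Mesp1-Cre, which removes floxed sequence in cells that express Mesp1 in early mesoderm, and Ai9, which turns on the red protein tdTomato in those cells and all their descendants. Controls carried 1 floxed copy of Wls (Wls fl/+) and mutants 2 (Wls fl/fl). Wls, or Wntless, is the carrier that Wnt proteins need to leave the cell that makes them. Both genotypes therefore had Cre, the reporter and at least 1 floxed allele, and only tdTomato-positive cells were kept, so cells outside the lineage were not sampled by intent.

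DNA methylation is copied to the new strand at each division by Dnmt1, which Uhrf1 guides to DNA methylated on its old strand, and is first laid down by the de novo enzymes Dnmt3a and Dnmt3b. Tet1, Tet2 and Tet3 oxidise methylcytosine and so start its removal. Lin28a and Lin28b are RNA-binding proteins that block the maturation of let-7 microRNAs, which in turn repress Lin28a, Lin28b and Hmga2, a chromatin protein of proliferating embryonic cells. This loop is known as a timer of development: Lin28 is high in early embryonic cells and let-7 builds up as they mature. Mature let-7 is too short for this assay and was not measured, so only the messenger side of the loop is described.

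The let-7 seed and its matches in the members' own transcripts show which of the 10 genes share that target letter sequence. Of 10 mature mouse let-7 entries in RefSeq, 9 carry the same seed (bases 2 to 8, in capitals), and let-7j differs in it. The first 3 are from the family with the common seed and the last has the other seed.
mmu-let-7a-5p: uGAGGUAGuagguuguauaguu
mmu-let-7b-5p: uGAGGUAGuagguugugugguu
mmu-let-7g-5p: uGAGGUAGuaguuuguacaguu
mmu-let-7j: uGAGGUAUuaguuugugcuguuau
The complement of the common seed, CTACCTC, was sought on the transcript strand in the longest annotated 3' UTR of each gene (GENCODE M21 on GRCm38). It lies 4 times in the 3' UTR of Lin28b, 4 times in Hmga2, 2 times in Lin28a and once in Tet3, and in none of the other 6 members. Of 20971 protein-coding genes with a 3' UTR, 8.96% have at least 1 match, 1.07% at least 2 and 0.0572% at least 4. Their median 3' UTR is 954 bases long and that of the members 3036, so the shares are not matched for length. The match is followed by A, the form CTACCTCA, in 3.02% of those genes and at least once in each of these 4 members. The stretches below end in such a match, in capitals, and all lie on the minus strand.
Lin28a first match, chr4:134005189-134005210: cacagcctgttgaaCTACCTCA
Lin28a second match, chr4:134004551-134004572: agatcgccacaaacCTACCTCA
Lin28b first match, chr10:45381022-45381043: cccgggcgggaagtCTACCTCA
Hmga2 first match, chr10:120364224-120364245: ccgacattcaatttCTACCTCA
Tet3 match, chr6:83365329-83365350: actacatgtataacCTACCTCA
A match of letters is a description of the reference and not a measured site of repression.

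The promoters of the maintenance pair are shown because both proteins act at replicating DNA. E2F factors, which switch on genes for DNA replication, are known to bind TTTGGCGC and TTTCGCGC. These letters, on either strand, lie in 0.813% of 32851 RefSeq promoters of 300 bases (250 before the start and 50 after, GRCm38.p6). Among the members they were found in 1 of the 3 listed Dnmt1 promoters, with 2 matches, and in 1 of the 2 listed Uhrf1 promoters, with 1 match (capitals). The 1 listed promoter of Lin28b, a gene that also followed the S phase score of cells described below, held none. Both E2F words contain CG. The Dnmt1 and Uhrf1 promoters shown hold 33 CG pairs each beside a median of 7 over all promoters, so the share is not matched for CG content.
Dnmt1, chr9:20952574-20952873, minus strand: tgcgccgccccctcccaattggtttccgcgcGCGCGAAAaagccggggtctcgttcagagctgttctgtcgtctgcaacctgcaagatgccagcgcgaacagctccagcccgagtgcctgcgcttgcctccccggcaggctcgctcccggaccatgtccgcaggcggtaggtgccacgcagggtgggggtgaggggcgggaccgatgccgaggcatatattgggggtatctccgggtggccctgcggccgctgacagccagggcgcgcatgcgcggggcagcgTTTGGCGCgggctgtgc
Uhrf1, chr17:56304063-56304362, plus strand: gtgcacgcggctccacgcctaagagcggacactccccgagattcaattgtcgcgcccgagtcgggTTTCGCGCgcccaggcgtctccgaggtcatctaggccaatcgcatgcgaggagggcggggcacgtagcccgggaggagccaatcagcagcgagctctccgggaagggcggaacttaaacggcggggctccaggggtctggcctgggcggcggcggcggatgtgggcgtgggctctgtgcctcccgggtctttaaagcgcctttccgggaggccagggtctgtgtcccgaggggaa
The TCF/LEF letters CTTTGAT or CTTTGTT, to which factors of the canonical Wnt pathway bind, lie in 9.33% of promoters and in no member's. Other forms of the TCF/LEF site were not sought. The E-box CACGTG lies in 7.15% and in 1 promoter each of Dnmt3a and Lin28b.

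The matrix held 14777 cells with a median of 21739 UMIs (counted molecules), from 3 sequencing runs. They fall into 22 barcode samples, cells sharing a MULTI-seq lipid barcode, run, stage and genotype: 1 control sample at E7.5, 3 control and 3 mutant at E8.0, 2 and 1 at E8.5, and 6 and 6 at E9.5. The labels do not say whether a barcode is 1 embryo or a pool, so p-values measure the spread between these samples only. Totals ran from 134457 UMIs (Bar6, 6 cells) to 61307782. Run 1 held every E8.0 sample, the E8.5 samples were sequenced in run 2, and E9.5 was spread over the 3 runs. Of 14754 distinct 10x barcode sequences, 23 occurred in more than 1 run. In the E8.0 controls 2.16% to 53.1% of cells with sex-specific transcripts were male, and in the E8.0 mutants 98.3% to 99.1%, so that sex and genotype cannot be told apart at E8.0. At E9.5 each genotype held male and female samples, but they were uneven within run 1. There the controls Bar22 and Bar23 were 1.96% and 2.19% male, and the mutants Bar19, Bar21 and Bar20 99.0%, 96.9% and 3.19%. Wls, the targeted gene, was at 35.9 to 65.4 CPM in the controls from E8.0 on and at 3.72 to 14.2 CPM in the mutants, with a fitted genotype difference of -2.38 on the log2 scale (SE 0.15). By sets of 8 markers, 2322 cells were blood, 2244 lateral plate or splanchnic mesoderm, 1395 paraxial mesoderm, 810 cardiomyocytes, 550 second heart field and 390 endothelial. Another 152 cells had neural and 94 endodermal or epithelial markers, 1194 had markers of several lineages and 5483 of none.

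From E8.0 to E9.5 the early de novo enzyme Dnmt3b and the let-7 blocker Lin28a fell, Tet2 and Dnmt3a rose, and Uhrf1 fell. These were 5 of the 10 genes, against 22.5% of 18063 genes tested over all (edgeR quasi-likelihood test on summed counts, adjusted p at or below 0.05). Dnmt1, Tet1, Tet3, Lin28b and Hmga2 did not pass. Levels are CPM, the UMIs of a gene in a sample scaled to the same total in every sample. In such sums a change in the share of a cell type and a change per cell cannot be told apart, nor can fewer cells of a type and less RNA per cell, and levels of different genes are not compared because the kit reads transcript ends.

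Dnmt3b (chr2:153649450-153687730, plus strand) was at 60.8, 51.6 and 65.5 CPM in the E8.0 controls Bar24, Bar26 and Bar29, and at 62.9, 49.0 and 57.8 CPM in the mutants Bar25, Bar27 and Bar28. At E8.5 it was at 36.7 and 24.6 CPM in the controls Bar2 and Bar3 and at 28.3 CPM in the mutant Bar1. At E9.5 the controls ran from 15.1 through a median of 25.8 to 31.7 CPM, and the mutants from 9.70 through 18.8 to 26.4 CPM. Every E8.5 and E9.5 sample was thus below every E8.0 sample. For E9.5 this held for 2.87% of genes tested, and for E8.5 the share was not counted. The fitted change from E8.0 to E9.5 was -1.28 on the log2 scale (SE 0.11, adjusted p = 1.26e-07), and the same fit gave -0.89 at E8.5 (SE 0.16, adjusted p = 0.00171). Dnmt3b was the 1 member of 10 that passed at E8.5, where 19% of genes did. The E8.5 call was lost in edgeR with a run term (adjusted p = 0.0891). E8.5 and E8.0 share no run.

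Lin28a (chr4:134003330-134018841, minus strand) stood at 275, 174 and 287 CPM in the E8.0 controls and at 301, 249 and 262 CPM in the mutants. At E8.5 the controls were at 253 (Bar2) and 139 CPM (Bar3) and the mutant at 192 CPM. The E9.5 controls ran from 65.3 through 111 to 143 CPM and the mutants from 30.2 through 119 to 160 CPM. Its E9.5 samples were all below all E8.0 samples, and the E8.5 samples overlapped both stages. The change to E9.5 was -1.06 on the log2 scale (SE 0.17, adjusted p = 0.000183) and that to E8.5 was -0.29 (SE 0.26, adjusted p = 0.438). Dnmt3b and Lin28a were the 2 members whose E9.5 samples lay below every E8.0 sample, which 2.87% of tested genes did. No member's E9.5 samples lay above every E8.0 sample, as did those of 0.46% of genes.

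The other writers moved less. Dnmt3a (chr12:3806007-3914443, plus strand), which takes over de novo methylation as embryos mature, averaged 47.3 ± 6.57 CPM at E8.0 (SD, n = 6) and 51.5 ± 10.0 CPM at E9.5 (SD, n = 12), with overlapping samples. Its fitted change was 0.26 on the log2 scale (SE 0.075, adjusted p = 0.0159), and it missed the threshold in limma (adjusted p = 0.118) and in edgeR with no low-count filter (0.0865), in controls alone (0.376) and in mutants alone (0.0674). Uhrf1 (chr17:56303321-56323486, plus strand) averaged 160 ± 3.46 CPM at E8.0 (SD, n = 6) and 110 ± 33.6 CPM at E9.5 (SD, n = 12). The E9.5 values split by run: 159.7 and 162 CPM in the controls of run 1 and 120.5 to 139 CPM in its mutants, but 59.5 to 112 CPM in runs 2 and 3. Its change of -0.36 (SE 0.11, adjusted p = 0.0184) became -0.16 with a run term (adjusted p = 0.230). Within run 1 alone it was -0.16 and passed (adjusted p = 0.0407), while it missed the threshold in controls alone (-0.33, adjusted p = 0.315) and in mutants alone (-0.40, adjusted p = 0.0514). Dnmt1 (chr9:20907209-20959888, minus strand) was at 129 ± 7.25 CPM at E8.0 (SD, n = 6) and 114 ± 23.8 CPM at E9.5 (SD, n = 12), a fitted difference of -0.03 (SE 0.090, adjusted p = 0.854).

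Tet2 (chr3:133463679-133545139, minus strand) was at 13.3, 14.5 and 15.2 CPM in the E8.0 controls and at 15.5, 16.8 and 17.2 CPM in the mutants. At E9.5 the controls ran from 9.63 through 17.2 to 21.0 CPM and the mutants from 28.8 through 37.8 to 48.8 CPM. The E9.5 controls overlapped the E8.0 samples and the E9.5 mutants did not. The share of all genes with such a split was not counted. The fitted change with stage was 0.84 (SE 0.17, adjusted p = 0.00154) over both genotypes. In the controls alone it was 0.33 (SE 0.21, adjusted p = 0.429) and in the mutants alone 1.34 (SE 0.18, adjusted p = 0.00111). Tet1 (chr10:62804570-62908996, minus strand) and Tet3 (chr6:83362373-83459084, minus strand) gave fitted stage changes of -0.0042 (SE 0.12) and -0.08 (SE 0.086), and neither passed.

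Lin28b (chr10:45376620-45486395, minus strand) was at 55.3 ± 3.31 CPM at E8.0 (SD, n = 6) and 45.2 ± 14.2 CPM at E9.5 (SD, n = 12), with a fitted change of -0.07 (SE 0.11, adjusted p = 0.712). Hmga2 (chr10:120361275-120476469, minus strand) was at 513 ± 78.0 and 399 ± 99.5 CPM, with a fitted change of -0.21 (SE 0.11, adjusted p = 0.203). Of the 3 genes with at least 2 seed matches, Lin28a thus fell in whole samples and Lin28b and Hmga2 did not pass. The E7.5 control sample Bar18 (28 cells, 64.3% with blood markers) had only 2 Dnmt3b and 2 Tet1 UMIs and 61 of Hmga2, 123 CPM with an exact Poisson interval of 94.0 to 158 CPM that covers counting error only. It enters no stage comparison.

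**Figure D1:**
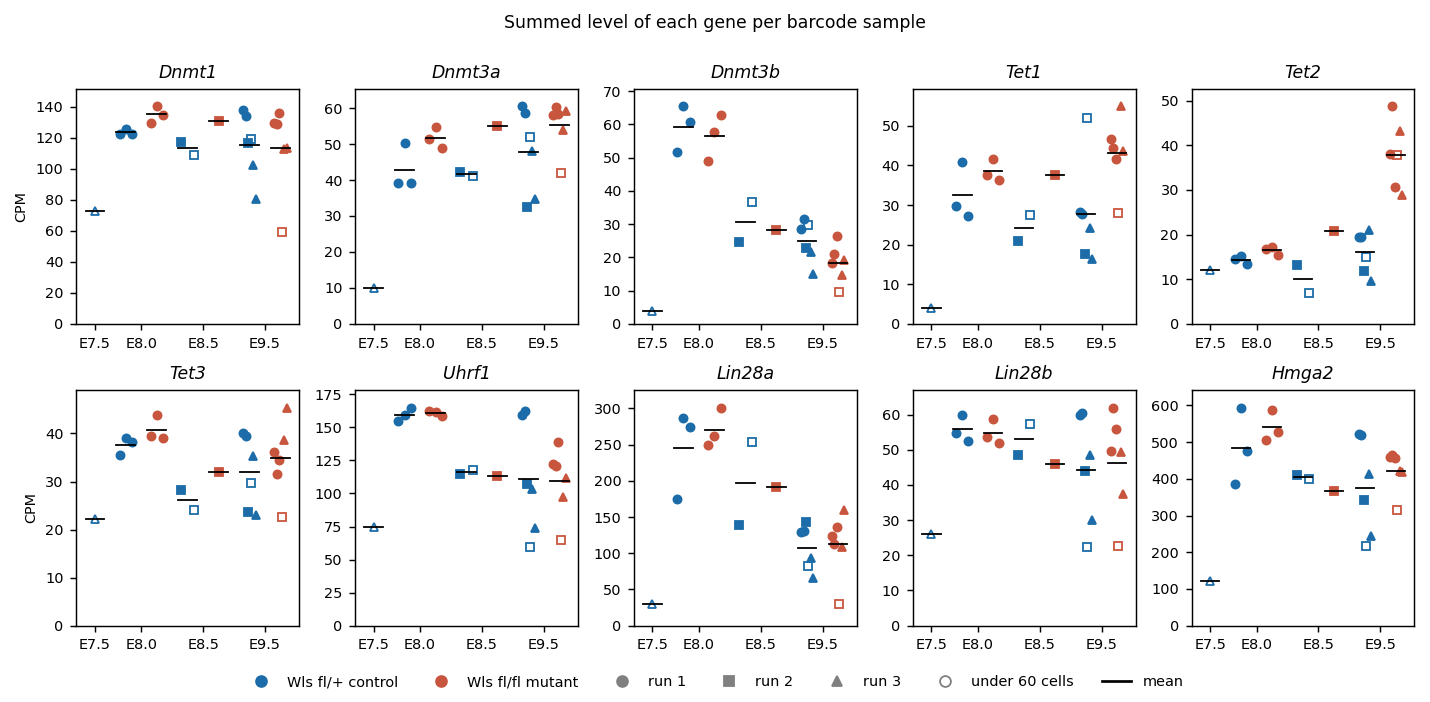
Level of each of the 10 genes in CPM (y axis, linear from 0) in each barcode sample by stage (x axis), controls in blue left of mutants in red; circles, squares and triangles are runs 1, 2 and 3, open symbols are samples with under 60 cells and black lines are group means. Dnmt3b and Lin28a are lower in every E9.5 sample than in every E8.0 sample, and Tet2 is above 28 CPM in the 6 E9.5 mutants only.

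The genotypes were compared at each stage, the question being how cells of the lineage differ when Wls is deleted. At E8.0 no member passed (0 of 10 in edgeR, with 0.0244% of 16416 genes called; 0 had an unadjusted p at or below 0.05, and DESeq2 called 0). The 3 E8.0 mutants were above the 3 controls for Dnmt1 (129.8 to 140 against 122 to 126 CPM) and Tet2 (15.5 to 17.2 against 13.3 to 15.2 CPM), differences of 0.05 and 0.12 on the fitted log2 scale. Such a lack of overlap held for 12.5% of genes tested with the mutants higher and 3.67% with the mutants lower. At E9.5, Tet1 and Tet2 were higher and Dnmt3b was lower in the mutants, 3 of 10 against 10.3% of 17227 genes tested. Blood-marker cells, in which all 10 genes were lower on average, made up a median of 24.4% of cells in the E9.5 controls (9.14% to 41.5%) and 15.9% in the mutants (10.7% to 31.6%), and 27.5% and 11.1% at E8.0. Without blood-marker cells the E9.5 differences of the 3 genes all passed in edgeR, Tet2 at 1.18, Tet1 at 0.87 and Dnmt3b at -0.41. The remaining 7, among them all of Lin28a, Lin28b and Hmga2, did not pass.

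The E9.5 mutant samples Bar19, Bar20, Bar21, Bar5, Bar8 and Bar10 had Tet2 at 38.0, 30.6, 48.8, 37.7, 28.8 and 43.3 CPM. The controls Bar22, Bar23, Bar4, Bar6, Bar7 and Bar9 were at 19.5, 19.5, 11.8, 14.9, 9.63 and 21.0 CPM. All 6 mutants were above all 6 controls, which held for 2.39% of genes tested, and 0.377% had all mutants below all controls, none of them a member. The place of the control Bar6 is uncertain. Its Tet2 value rests on 2 UMIs in 6 cells, with an exact Poisson interval of 1.80 to 53.7 CPM that spans the mutants. The means were 37.9 ± 7.52 and 16.0 ± 4.66 CPM (SD, n = 6 each), and the fitted difference was 1.10 on the log2 scale (SE 0.17, adjusted p = 0.00141), or 2.15-fold. Tet2 was called in each of the 12 fits that left out 1 sample. Within run 1, where mutants averaged 39.1 and controls 19.5 CPM, the difference was 1.05 (edgeR adjusted p = 0.0321). In run 3, with 2 samples of each genotype, it was 0.95 (edgeR adjusted p = 0.240), and run 2 had 1 mutant sample of 57 cells.

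Tet1 in the same mutant samples, in that order, was at 46.7, 41.5, 44.3, 28.0, 43.8 and 55.0 CPM, and in the controls at 28.3, 27.7, 17.6, 52.1, 16.3 and 24.3 CPM. The control Bar6 overlapped the mutants, but its value rests on 7 UMIs in 6 cells, with an exact Poisson interval of 20.9 to 107 CPM. The other 5 controls lay from 16.3 to 28.3 CPM, and 1 mutant, Bar5, lay among them. The fitted difference was 0.81 (SE 0.12, adjusted p = 0.000847), or 1.76-fold, and 0.70 within run 1 (edgeR adjusted p = 0.0163). Within run 3 alone it was 1.05 and did not pass (edgeR adjusted p = 0.0918). In limma, which weighted all samples equally here, it was 0.62 and missed the threshold (adjusted p = 0.238). Tet3, the third enzyme of the family, differed by -0.01 (SE 0.098).

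Dnmt3b was lower in the E9.5 mutants, at 18.3 ± 5.67 against 24.9 ± 6.24 CPM (SD, n = 6 each), with overlapping samples. The difference was -0.46 (SE 0.12, adjusted p = 0.0292). It was called in 5 of the 12 fits that left out 1 sample, lost without Bar22, Bar23, Bar9, Bar19, Bar21, Bar5 or Bar10, and lost with the share of male cells as a covariate (adjusted p = 0.0851). Within run 1 it did not pass (-0.42, edgeR adjusted p = 0.0977), nor within run 3 (-0.37, edgeR adjusted p = 0.525). In limma the Dnmt3b difference also missed the threshold (-0.56, adjusted p = 0.289). Dnmt3a and Uhrf1 gave 0.15 (SE 0.084) and -0.21 (SE 0.11) and did not pass. Within run 1 alone Uhrf1 was called lower in the mutants (-0.30, edgeR adjusted p = 0.0466).

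Over all stages in 1 fit the same 3 genes passed, against 10.2% of 20831 genes: Tet2 at 0.71 (SE 0.15, adjusted p = 0.00622), Tet1 at 0.55 (SE 0.11, adjusted p = 0.00318) and Dnmt3b at -0.30 (SE 0.087, adjusted p = 0.0308). The Dnmt3b call was lost in edgeR with DESeq2 size factors (adjusted p = 0.0598) or the male share as covariate (0.202), and in limma (0.216). These fits share the E9.5 samples with the comparison above and are not further evidence. The genotype difference at E9.5 was then tested against that at E8.0 by an interaction term. No member passed in edgeR (0 of 10, with 0.464% of 17872 genes called), and Tet1 and Tet2 were the 2 with an unadjusted p at or below 0.05. The change in effect was 0.99 for Tet2 (SE 0.25, adjusted p = 0.104) and 0.65 for Tet1 (SE 0.19, adjusted p = 0.154). DESeq2 called both, at adjusted p of 0.0207 and 0.0362, and edgeR called Tet2 without Bar9 or without Bar20 (adjusted p = 0.047 and 0.035). With no low-count filter edgeR called Tet2 (0.93, adjusted p = 0.00165), and without blood-marker cells it called Tet1 (0.78, adjusted p = 0.0129).

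**Figure D2:**
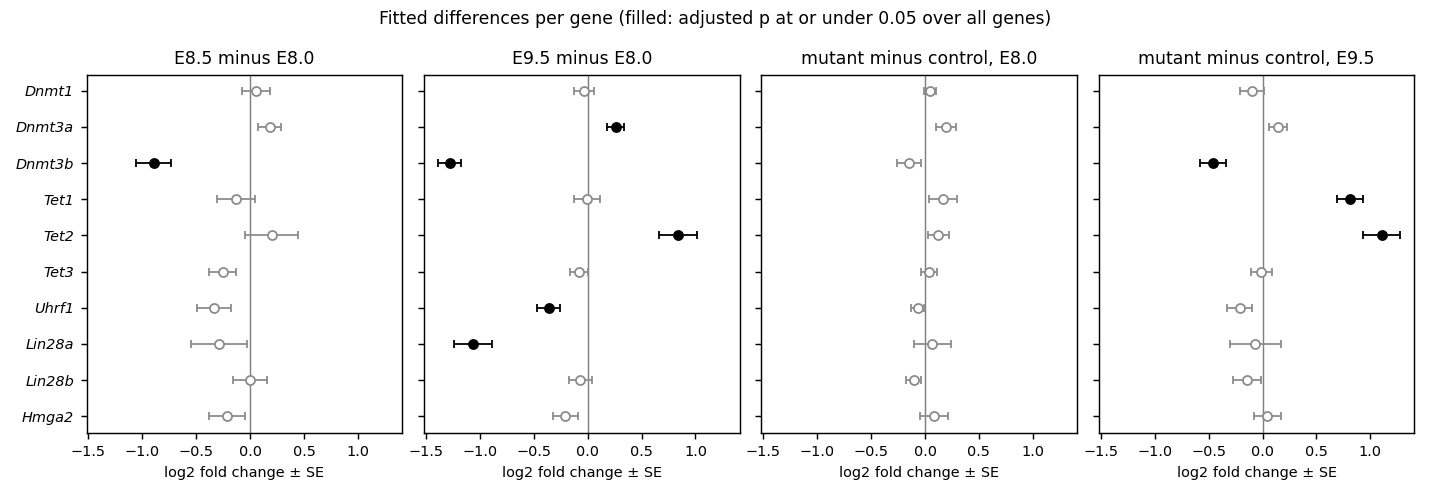
Fitted log2 differences (x axis, points, with bars of 1 standard error) of the 10 genes (y axis) between stages, E8.5 and E9.5 each against E8.0, and between mutant and control at E8.0 and at E9.5, in 4 panels; filled points passed the adjusted threshold of 0.05. Dnmt3b and Lin28a lie at -1.28 and -1.06 in the comparison of the latest stage with E8.0, and Tet1 and Tet2 lie at 0.81 and 1.10 for genotype at E9.5.

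Each member was next followed in cells positive for fixed lineage markers, at least 5 of 8 markers of 1 lineage and of no other. The cut at 5 was set after the data were seen, and no member is a marker. In 60 paired differences (10 genes in 6 lineages), a lineage was set against all other cells of the same samples. An exact sign-flip permutation test over samples called 44 of the 60 after Benjamini-Hochberg adjustment over the 60. Many genes differ between lineages. At an unadjusted exact p at or below 0.05, 7 members passed in cardiomyocytes beside 68.0% of 8328 genes of at least 10 CPM, 10 in blood beside 86.3%, 6 in endothelial cells beside 51.3%, 7 in paraxial mesoderm beside 56.7%, 7 in second heart field beside 45.7%, and 7 in lateral plate or splanchnic cells beside 63.6%. These counts are a description, and nothing in them is particular to the members. Blood-marker cells had less of all 10 genes in CPM, as of 77.6% of those genes. Hmga2 averaged 40.8 ± 30.1 CPM there and 563 ± 61.4 CPM in the other cells (SD, n = 17 samples), lower in 17 of 17 samples, and Lin28a 16.4 ± 16.9 against 213 ± 82.8 CPM. Dnmt3a was at 8.35 ± 2.99 against 61.1 ± 7.74 CPM and Tet1 at 5.37 ± 4.43 against 41.3 ± 11.5 CPM. The maintenance pair differed least, Dnmt1 by -0.55 and Uhrf1 by -0.62 on the log2 scale. Globin transcripts take up UMIs in these cells, 7.69% ± 3.36 at E8.0 (SD, n = 6) and 36.1% ± 5.85 at E9.5 (SD, n = 9). They count in the total that CPM divide by.

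Among the mesodermal lineages the 10 genes did not move together. The other cells of a sample include blood-marker cells, in which all 10 are low, so each lineage was also set against the other cells without them, an alternative added after the data were seen. By that measure 20 of 50 pairs passed, and it is the base of the values that follow. At an unadjusted exact p at or below 0.05 it gave 7 members in cardiomyocytes beside 73.0% of the 8328 genes, 5 in endothelial cells beside 54.7%, 3 in paraxial mesoderm beside 48.0%, 3 in second heart field beside 35.7%, and 4 in lateral plate or splanchnic cells beside 40.0%. Second heart field cells, the progenitors added to the growing heart tube, had more Tet1 (62.6 ± 24.8 against 39.2 ± 10.5 CPM, a log2 difference of 0.63) and slightly more Lin28a (250.5 ± 78.5 against 224 ± 74.8 CPM, 0.18), each in 11 of 11 samples (two-sided exact p = 0.000977 for each). Tet2 was at 30.4 ± 20.2 against 23.6 ± 14.7 CPM, higher in 10 of 11 samples (two-sided exact p = 0.00488). Against all other cells its difference was 0.54, and 0.28 with the stricter rule of 6 markers. Hmga2 in second heart field was higher in 11 of 11 samples against all other cells (0.37), but by 0.07 and in 8 of 11 samples without blood-marker cells, and did not pass.

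Cardiomyocytes had less Lin28b (22.3 ± 6.48 against 61.1 ± 5.58 CPM), Dnmt3b (18.3 ± 13.4 against 41.8 ± 18.4 CPM), Uhrf1 (73.9 ± 27.2 against 149 ± 21.0 CPM) and Dnmt1 (93.9 ± 14.7 against 136 ± 9.49 CPM), each lower in 16 of 16 samples (two-sided exact p = 3.05e-05 for each). Dnmt3a was higher in cardiomyocytes against all other cells (0.47, in 13 of 16 samples) and did not pass without blood-marker cells, at 67.5 ± 16.8 against 60.1 ± 6.34 CPM (0.14). Hmga2 in cardiomyocytes was level with all other cells (-0.03), but lower than in the non-blood cells, at 449 ± 145 against 562 ± 49.7 CPM (two-sided exact p = 0.00113). Lin28a and Tet3 also differed between cardiomyocytes and the non-blood cells (two-sided exact p = 6.10e-05 and 0.0117).

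Lateral plate or splanchnic cells had more Hmga2, 645 ± 68.7 against 551 ± 52.6 CPM, in 16 of 16 samples (a log2 difference of 0.23, two-sided exact p = 3.05e-05). That difference was 0.60 with blood-marker cells in the reference. Their Lin28a was at 235 ± 94.0 against 213 ± 76.4 CPM, higher in 12 of 16 samples (0.12, two-sided exact p = 0.00818), and the difference was 0.49 against all other cells. Lin28b was the other way in these cells, lower by a log2 difference of -0.19 without blood-marker cells (two-sided exact p = 0.00128). Paraxial mesoderm, which forms somites, had more Lin28b (81.5 ± 9.05 against 58.1 ± 5.90 CPM, 0.49) and Dnmt3b (49.2 ± 17.2 against 41.4 ± 17.9 CPM, 0.29), each in 14 of 14 samples (two-sided exact p = 0.000122). Dnmt3a there, called against all other cells (0.39), did not pass without blood-marker cells (0.09). Endothelial cells had less Lin28a, 113 ± 55.6 against 212 ± 72.8 CPM (-0.98), and less Tet1, 26.7 ± 12.1 against 40.3 ± 10.4 CPM (-0.64), each in 9 of 9 samples (two-sided exact p = 0.00391 for each, the smallest that 9 pairs allow). The order of mean Lin28a levels was second heart field, lateral plate, paraxial mesoderm, cardiomyocytes, endothelial cells and blood, but the SDs of all neighbours in that order up to endothelial cells overlap, and the lineages were met in different numbers of samples. Lin28b had another order, paraxial mesoderm first and cardiomyocytes last at 22.3 CPM, below blood at 29.4 ± 17.1 CPM. These means pool stages, and Lin28b in blood fell from E8.0 to E9.5, as given below. The orders were not compared within a stage, so the place of blood against cardiomyocytes holds for the pooled samples only.

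**Figure D3:**
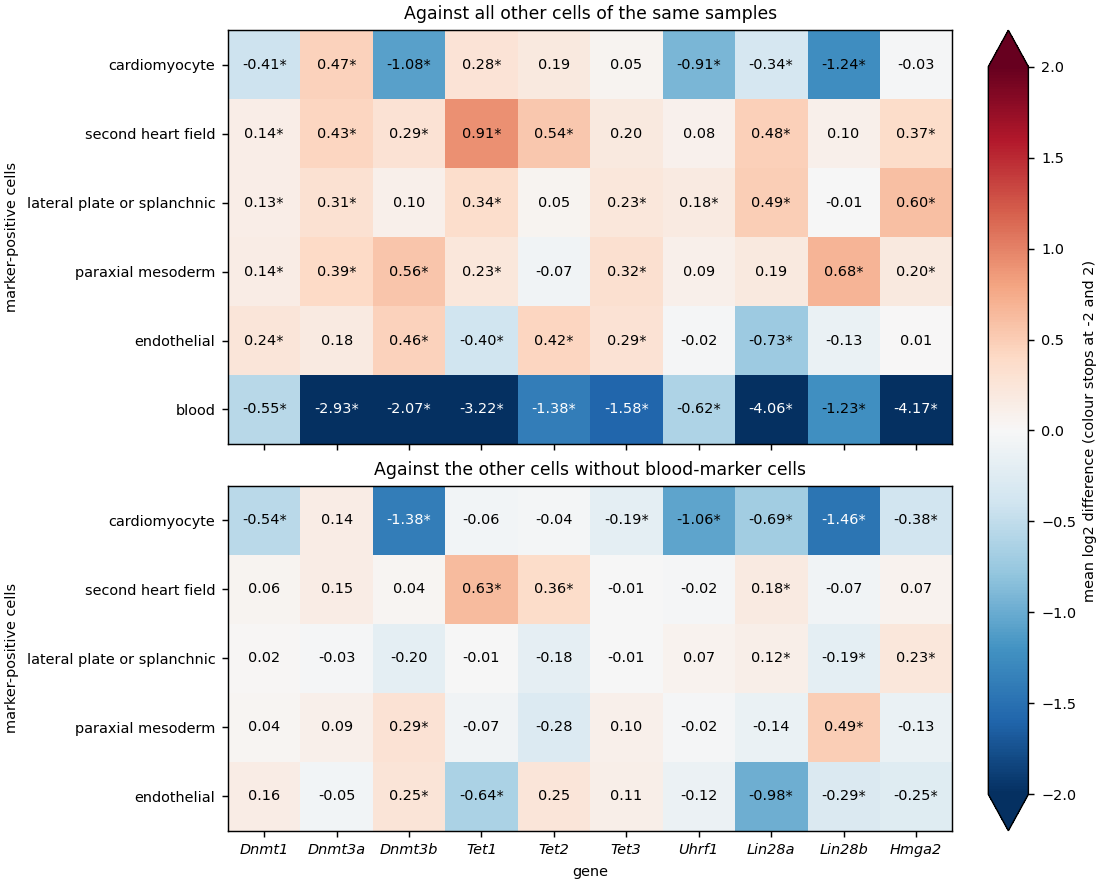
Difference of each gene between marker-positive cells of a lineage and other cells of the same samples, all others (upper grid) or those without blood-marker cells (lower grid), with genes on the x axis and lineages on the y axis; colour and the printed number give the mean log2 difference over samples, and stars mark an adjusted p at or below 0.05 in the exact test within a grid. All 10 genes are below 0 in blood-marker cells, Tet1 in second heart field is at 0.91 in the upper and 0.63 in the lower grid, and Lin28b in cardiomyocytes is at -1.24 and -1.46.

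The stage comparison was repeated within marker-positive cells of 6 lineages. Shifts of subtype within such a set were not tested. Of 60 gene and lineage pairs 20 passed. Dnmt3b fell in 5 of the 6 lineages. In lateral plate or splanchnic cells it was at 54.1, 59.1 and 67.5 CPM in the E8.0 controls, at 56.3, 55.0 and 61.5 CPM in the E8.0 mutants, and from 16.9 to 31.8 CPM in the 8 E9.5 samples. The fitted change there was -1.25 (SE 0.11, adjusted p = 1.21e-06). It was -1.50 in cardiomyocytes (33.8 ± 11.9 to 11.3 ± 6.86 CPM), -1.26 in second heart field, -0.93 in paraxial mesoderm and -1.49 in blood. In endothelial cells it was -0.98 and just missed the threshold (adjusted p = 0.051, 3 against 4 samples).

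Lin28a fell in 5 of the 6 lineages as well. Lateral plate or splanchnic cells went from 340 ± 46.7 CPM (SD, n = 6) to 159 ± 26.7 CPM (SD, n = 8), a change of -1.10 (SE 0.11, adjusted p = 1.98e-06). The change was -1.26 in cardiomyocytes, -0.76 in second heart field and -0.58 in paraxial mesoderm (lost without Bar29, Bar25 or Bar21). Endothelial cells were at 183, 209.5 and 148 CPM in 3 E8.0 samples and at 69.2, 74.8, 50.0 and 72.4 CPM in 4 E9.5 samples, a change of -1.38 that was lost without Bar29 (adjusted p = 0.077). In blood Lin28a did not pass (-0.42, adjusted p = 0.34), at 11.3 to 76.1 CPM in the E8.0 and 4.67 to 18.2 CPM in the E9.5 samples. Lin28b behaved otherwise: it passed in blood only, at 40.4 to 62.9 CPM in 6 E8.0 samples and 6.72 to 25.6 CPM in 9 E9.5 samples. The fitted blood change of Lin28b was -0.75 (SE 0.14, adjusted p = 0.000488). The part of the globin share, which rose between these stages, was not tested. Whether the change in Lin28b differs between blood and other lineages was not tested.

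Hmga2 fell within 2 lineages although it did not pass in whole samples. In cardiomyocytes the E8.0 samples ran from 513 to 771 CPM and the 9 E9.5 samples from 267 to 490 CPM without overlap (2.09% of genes lay lower and 2.05% higher without overlap there), a change of -0.64 (SE 0.13, adjusted p = 0.00259). In paraxial mesoderm it went from 613 ± 60.4 to 484 ± 39.0 CPM, a change of -0.37 (adjusted p = 0.00724) that the stricter rule of 6 markers lost. In lateral plate or splanchnic cells the values were 656 and 667 CPM and the fitted change 0.01. In blood Hmga2 did not pass, but without Bar28 it was called the other way, higher at E9.5 (0.82, edgeR adjusted p = 0.0400). Dnmt3a rose in second heart field (50.4 ± 11.8 to 92.0 ± 24.0 CPM, 0.96, adjusted p = 0.00212), in cardiomyocytes (0.65, adjusted p = 0.00637) and in lateral plate cells (0.35, adjusted p = 0.041, called in 3 of 14 fits that left out 1 sample, with 0.103 the highest adjusted p, without Bar25). Tet2 rose in lateral plate cells (12.9 ± 2.46 to 31.8 ± 15.2 CPM, 1.22, adjusted p = 0.0013) and second heart field (1.10, adjusted p = 0.00713). The second heart field call was lost with the stricter rule (0.87, adjusted p = 0.0987). Both Tet2 fits hold controls and mutants, and a rise in controls alone was not tested within a lineage. In whole samples the Tet2 change in controls alone did not pass (0.33, edgeR adjusted p = 0.429). Uhrf1 fell in cardiomyocytes (-0.60, adjusted p = 0.0344) and blood (-0.29, adjusted p = 0.0447). The first call was lost in 8 of the fits that left out 1 sample (most without Bar29, at an adjusted p of 0.25) and the second in 10 (most without Bar29, at 0.112). Both were also lost with run 1 alone, at -0.42 (adjusted p = 0.215) in cardiomyocytes and -0.12 (adjusted p = 0.269) in blood.

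The shares of all genes called in these fits, beside which the counts stand, were 13.6% in cardiomyocytes (5 members), 31.5% in blood (3), 3.77% in endothelial cells (1), 8.02% in paraxial mesoderm (3), 9.3% in second heart field (4) and 23.8% in lateral plate or splanchnic cells (4). E8.0 is all run 1, so run and stage are partly confounded. With the E9.5 samples of run 1 alone, 18 pairs passed, and the 2 lost were the Uhrf1 pairs.

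**Figure D4:**
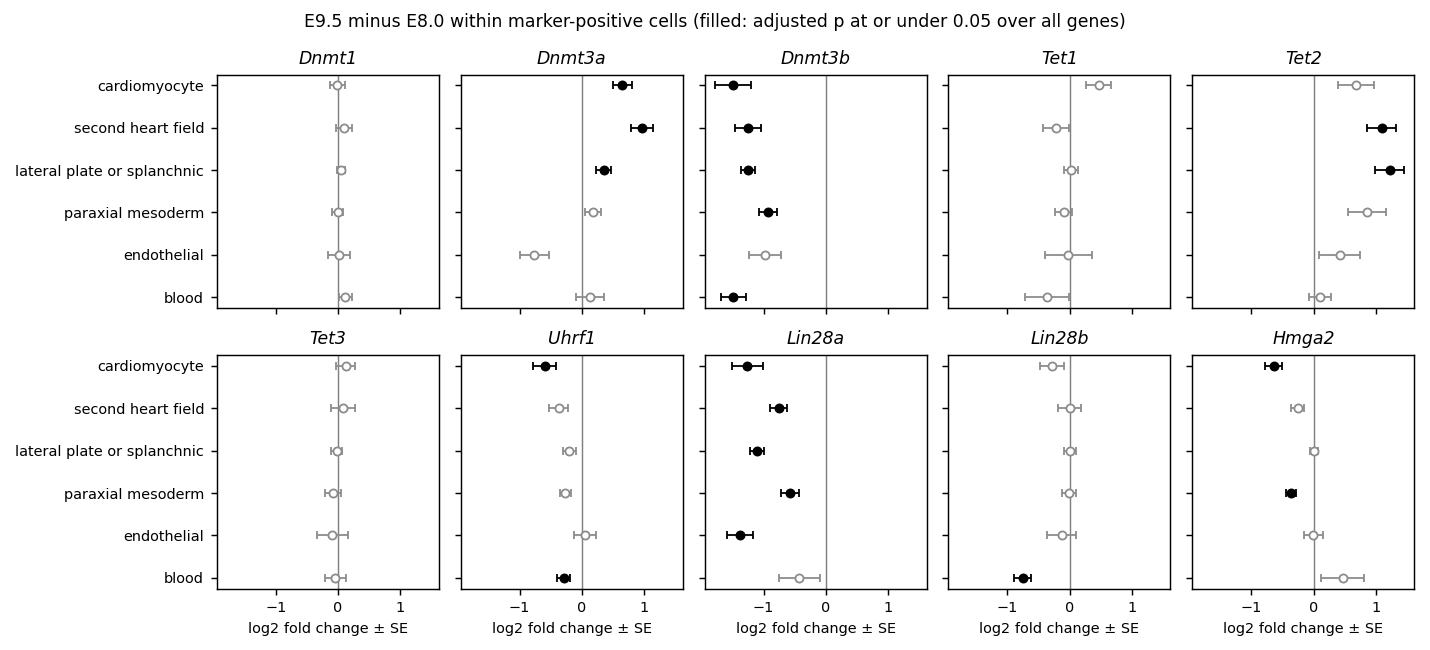
Fitted log2 change from E8.0 to E9.5 (x axis, points, with bars of 1 standard error) within marker-positive cells of 6 lineages (y axis), 1 panel for each gene; filled points passed the adjusted threshold of 0.05. Dnmt3b is near -1 or below in every lineage shown, and Lin28b passed in blood alone at -0.75.

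The genotype comparison at E9.5 could be made within 4 lineages, where 5 of 40 pairs passed. In cardiomyocytes Tet1 was at 24.8, 29.6, 26.6, 36.4 and 21.6 CPM in 5 control samples and at 82.4, 58.9, 79.2 and 46.6 CPM in 4 mutant samples, with no overlap. In these cells 2.6% of genes lay higher and 3.01% lower in all mutants. The difference was 1.25 (SE 0.22, adjusted p = 0.00275), where 2.33% of 9304 genes passed. Tet2 in those cells was at 17.9 CPM in controls and 37.7 CPM in mutants on average and did not pass (0.78, adjusted p = 0.26). In paraxial mesoderm Tet2 was at 16.2, 22.0, 13.3 and 17.9 CPM in 4 control samples and at 43.4, 51.8 and 41.1 CPM in 3 mutant samples, apart as 13.8% of genes were (12.6% the other way) and as were Dnmt1, Dnmt3a, Tet1 and Lin28b among the members, with a difference of 1.23 (SE 0.18, adjusted p = 0.00271). There 13.2% of genes passed, and Tet1 (0.58), Uhrf1 (-0.41) and Lin28a (0.31) were also called. Those 3 calls were lost on leaving out Bar22 or Bar23, and the mean Lin28a levels were 155 and 156 CPM. Some were also lost without Bar19, Bar20 or Bar21.

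In lateral plate or splanchnic cells no member passed (0 of 10 in edgeR, 1.31% of genes called; 3 had an unadjusted p at or below 0.05). Tet1 was at 35.0, 34.9, 29.4 and 37.8 CPM in the controls and at 55.5, 50.8, 44.2 and 54.9 CPM in the mutants, all mutants above all controls (as for 5.32% of genes, with 4.66% below), with a fitted difference of 0.51 (SE 0.13, adjusted p = 0.081). Tet2 gave 0.84 (SE 0.26, adjusted p = 0.134). Without Bar20, a mutant sample, both passed in edgeR (adjusted p = 0.016 and 0.017), as did Uhrf1. The controls here and in paraxial mesoderm (Bar22, Bar23, Bar4 and Bar9) were 1.74% to 2.75% male. Of the run 1 mutants, Bar19 and Bar21 were mostly male and Bar20 was not. Sex was not a term in the fits within lineages, and its part was not tested. In blood no member passed either (0 of 10 in edgeR, 0.174% of genes called; 2 had an unadjusted p at or below 0.05, and Tet2 gave 0.69, adjusted p = 0.289). Whether the genotype difference in Tet1 or Tet2 differs between lineages was not tested.

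The share of cells with at least 1 UMI of a gene was also counted. Each cell was thinned to 5000 UMIs, which left out 365 control and 82 mutant cells below that depth. Tet2 had a UMI in 8.26% ± 2.46 of cells of the E9.5 controls (SD, n = 5) and 18.0% ± 3.51 of the mutants (SD, n = 6), against 4.49% in blood-marker cells. Among lineages, shares were counted in blood, lateral plate and cardiomyocytes only. These lineage shares, here and below, pool samples from E8.0 to E9.5 and both genotypes, unlike the group shares beside them. Without thinning the shares were 24.8% and 38.3%. Tet1 had 11.5% ± 2.04 and 19.2% ± 2.38, against 2.82% in blood-marker cells. Dnmt3b fell from 24.1% ± 2.48 in the E8.0 controls (SD, n = 3) to 11.2% ± 2.80 in the E9.5 controls (SD, n = 5), against 5.49% in blood-marker cells. Lin28a fell from 60.5% ± 10.3 to 39.8% ± 8.37, against 6.56% in blood-marker cells. Hmga2 was met in 91.0% ± 3.04 of lateral plate cells and 13.1% ± 8.58 of blood-marker cells, whose median depths were 23688.5 and 27725 UMIs.

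Because Dnmt1 and Uhrf1 act at the replication fork, each sample's cells were also ranked by the share of their UMIs from 20 S phase genes, none of them a member, and the upper and lower tertile compared. This split was added after the data were seen. Over all cells Uhrf1 was at 80.6 ± 28.8 CPM in the lower and 189 ± 30.1 CPM in the upper tertile (SD, n = 18), higher in 18 of 18 samples (two-sided exact p = 7.63e-06, 1 of 10 genes tested). Dnmt3b was also higher in 18 of 18 samples and Dnmt1 and Lin28b in 17 of 18, by 0.59, 0.55 and 0.80 on the log2 scale beside 1.31 for Uhrf1, and over all cells every member but Tet1 and Tet3 had a two-sided exact p at or below 0.05, 8 of 10 beside 63.4% of 8328 genes. In lateral plate or splanchnic cells, where the split was repeated because lineages differ in this score, it was 4 of 10 beside 41.4%. There Uhrf1 went from 111 ± 27.7 to 210 ± 19.2 CPM (SD, n = 14), higher in 14 of 14 samples (two-sided exact p = 0.000122). Lin28b went from 44.6 ± 11.7 to 59.5 ± 7.5 CPM, higher in 13 of 14 samples (two-sided exact p = 0.00159), and Dnmt1 from 121 ± 18.5 to 151 ± 17.2 CPM, higher in 11 of 14 (two-sided exact p = 0.00464). Tet3 was the other way, from 47.2 ± 9.21 to 37.6 ± 7.95 CPM, higher in 2 of 14. Lin28a differed by 0.03 and Hmga2 by 0.10 on the log2 scale in these cells.

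**Figure D5:**
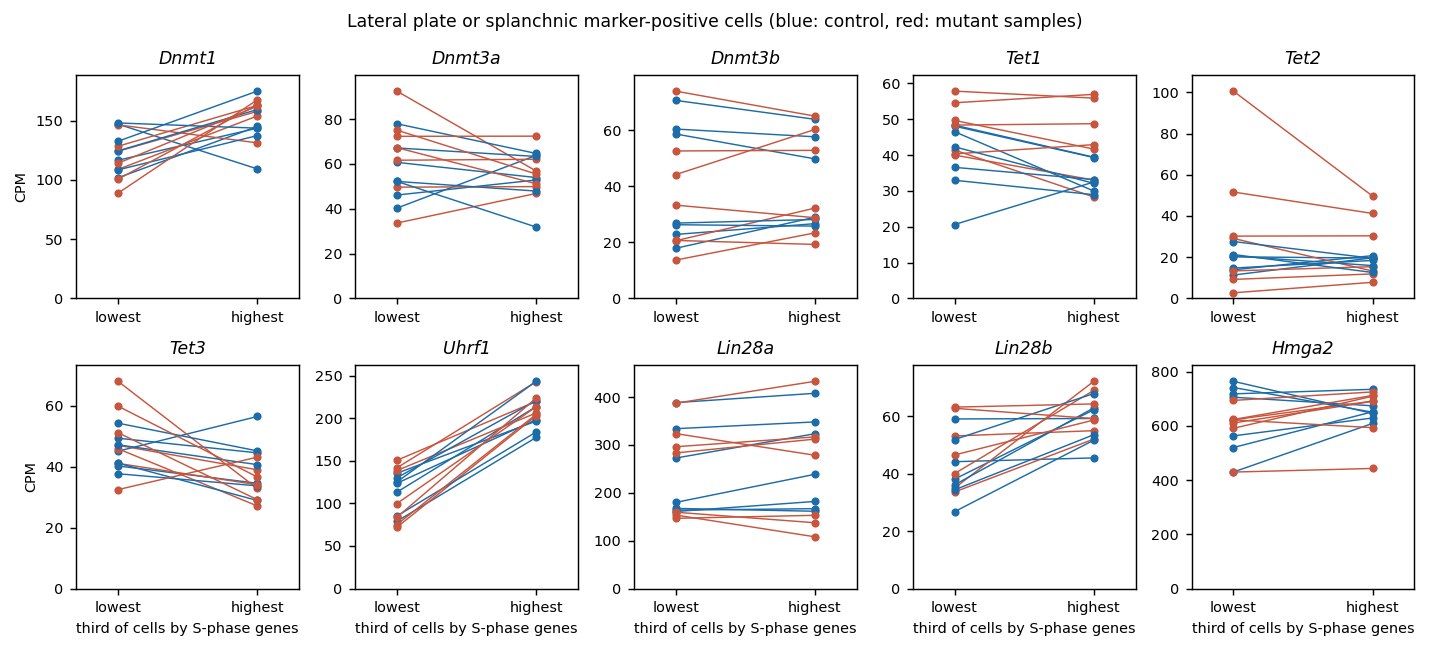
Level of each gene in CPM (y axis, linear from 0) in the tertile of lateral plate or splanchnic cells with the lowest and that with the highest share of S phase transcripts (x axis); each line joins the 2 values of 1 sample, blue for controls and red for mutants. Uhrf1 is higher in the upper tertile in 14 of 14 samples, by 0.96 on the log2 scale on average, and Tet3 in 2 of 14.

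Related genes were counted from lists chosen by function, and the counts stand beside the 22.5% of all genes called for stage and the 10.3% called for genotype at E9.5. Of 30 DNA methylation partners (readers, repair enzymes and recruiters), 28 were tested: 7 rose and 4 fell from E8.0 to E9.5, with a median change of -0.01 beside 0.00 over all genes. Trim28, which recruits silencing machinery to imprinted and repeat DNA, fell from 376 ± 26.0 to 247 ± 72.7 CPM (-0.48), and the uracil repair enzyme Ung fell by 0.62. The methyl-CpG reader Zbtb38 rose by 0.60 and the CXXC-domain gene Cxxc5 by 0.44. At E9.5 the 4 partners called, of 28, were near the share over all genes: 3 were higher in mutants, Gadd45b (0.98), a stress gene linked to demethylation, Zbtb4 (1.05) and Cxxc5 (0.43), and Trim28 was lower (-0.37).

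Of 24 symbols for let-7 processing 19 were tested, 2 rose and 3 fell with stage, near the 22.5% over all genes. The 2 were Mir99ahg, the host transcript of a let-7c cluster, from 7.72 ± 3.35 to 39.6 ± 21.0 CPM (2.38, SE 0.29, adjusted p = 1.04e-05), and Tut4, the uridyl transferase that Lin28a recruits to let-7 precursors (0.57). Drosha, Xpo5 and Tarbp2, of the general microRNA pathway, fell (-0.35, -0.40 and -0.23). Tut4 was also higher (0.33) and Tarbp2 lower (-0.44) in the E9.5 mutants, 2 of 19 beside 10.3% of all genes. A host transcript's level is not that of the mature microRNA.

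Beside the same 22.5% for stage and 10.3% for genotype, of 30 genes known as let-7 targets 3 rose and 8 fell with stage, with a median of -0.17. Arid3b (78.2 ± 14.4 to 31.8 ± 11.6 CPM, -1.09), Nr6a1 (-0.84) and Hmga1 (-0.63) fell with Lin28a, and the collagen genes Col3a1 (2.75) and Col1a2 (0.99) rose. Between genotypes at E9.5, 4 of 29 were higher and 3 lower, among them Igf1r (0.46), Ccnd1 (-0.45) and Cdc34 (-0.43). Of 20 S phase genes 0 rose and 9 fell with stage, among them Cdc6 (-0.54) and Rrm2 (-0.62), and 4 were lower in the E9.5 mutants, among them Rrm2 (-0.75) and Tyms (-0.45). Of 16 G2/M genes 1 rose with stage, Nusap1 (0.47), and 2 were lower in the mutants, Aurka (-0.45) and Plk1 (-0.52). The stage count of this list is below the share over all genes and its genotype count near it. Of 17 epiblast and pluripotency genes 8 fell with stage and 1 rose. Among those that fell were Lefty2 (-5.38, from 32.3 ± 32.9 CPM), Nodal (-4.71, from 5.87 ± 5.42 CPM) and Pou5f1 (-1.73, from 4.91 ± 2.40 CPM). The SDs of Lefty2 and Nodal at E8.0 were near their means. None of 14 passed between genotypes at E9.5.

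Over the 21 samples with at least 20 cells, genes most alike each member in log2(CPM + 1) were sought among 8328 genes of at least 10 CPM on average. Uhrf1 was most alike Trim28 and Acly (both r = 0.98), Dnmt1 Enkd1 (0.97) and Bub1b (0.96), and Lin28b Atg4b (0.97) and Rcbtb1 (0.96). Dnmt3b was most alike Dck and Dusp9 (both 0.96), and Lin28a Ifitm1 (0.97) and Phlda2 (0.96). Tet1 was most alike the histone demethylase Kdm5b (0.99) and Zfp507 (0.97), Tet2 Plag1 (0.93), Tet3 Pigm and Ythdc1 (both 0.94), Dnmt3a Nf1 and Foxp1 (both 0.97), and Hmga2 Cdc14b (0.98) and Cttn (0.97). Between members the highest were Dnmt3a with Tet1, Dnmt3b with Lin28a and Dnmt1 with Lin28b (all r = 0.92), and the lowest Dnmt3b with Tet2 (-0.27). These samples share runs and differ in the share of blood cells, in which all 10 genes are low, and both enter every such r. The 21 include the E7.5 sample Bar18 (28 cells), an extreme low point for some members. Dnmt3a was at 10.1 CPM in Bar18 and at 32.5 CPM or more in the other samples, and Tet1 at 4.03 and at 16.3 CPM or more. No r was computed without Bar18, so its part in these values was not tested.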

How the data were processed

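The deposited matrix gives counts of UMIs per gene and cell, which the authors made with kallisto, bustools 0.46.1 and Cell Ranger on GRCm38, per the submitters' processing notes; how the tools were combined is not given in the sources used here. The authors' per-cell table gave each cell's run, MULTI-seq barcode, stage and genotype. UMIs were summed over the cells of a barcode sample, 22 in all (134457 to 61307782 UMIs each), and tested with the quasi-likelihood test of edgeR 4.0.16 (R 4.3.3), with filterByExpr, TMM scaling and Benjamini-Hochberg adjustment at 0.05 over all genes tested. The terms were stage and run for genotype over all stages, run for genotype at E9.5, and genotype for stage. Levels are CPM of all UMIs of a sample, while fitted log2 values are TMM-scaled, so the 2 can differ. Within lineages, samples with at least 20 marker-positive cells entered. Germ cells, for which 6 markers were listed, were not met (0 cells). No doublet caller was run, and cells positive for several lineages were left out of lineages. Alternatives were DESeq2 1.42.0, limma 3.58.1 on mean CPM per cell (log2 of CPM + 1), other scalings and filters, single runs and each sample left out. The members, gene lists and tests were chosen with earlier results of these data known. All 10 members were named in every comparison of whole samples, up to 5 genes of each related list by smallest adjusted p, and within lineages those that passed for stage or genotype. Of the differences in level between lineages that passed, only part are named in the text. The edgeR fits were tested on simulated counts. Intervals from counts are exact Poisson at 95% and cover counting error only. Promoter and microRNA sequences are from RefSeq and 3' UTRs from GENCODE M21. A dense copy of the same matrix was not used.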

Additional observations from a re-analysis of the deposited data

Results flagged for a closer look

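In groups of 6 samples, 20 gene and genotype sets at E9.5 were checked for a sample that stands far from the rest (a gap to its nearest neighbour that exceeds Dixon's critical share of the whole range), and 4 did. Chance gives about 1 in 20 such sets where all samples are like draws from the same normal distribution. These sets reuse the same samples, which come from 3 runs and differ in depth, so the 4 cannot be judged against that share. In the mutant sample Bar5 (57 cells, run 2), Dnmt1 was at 59.3 CPM beside 113 to 136 CPM in the other 5 mutants, Dnmt3a at 42.0 CPM beside 54.0 to 60.2 CPM, and Hmga2 at 315 CPM beside 418 to 465 CPM. Bar5 had 31.6% blood-marker cells, the highest share among the E9.5 mutants. The part of that share in the 3 low values was not tested. In the control sample Bar6 (6 cells, 7 Tet1 UMIs), Tet1 was at 52.1 CPM beside 16.3 to 28.3 CPM in the other 5 controls. Without samples of under 20 cells, which leaves Bar6 out, the genotype difference of Tet1 at E9.5 was 0.82 (edgeR adjusted p = 0.000424).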

How the results depend on the processing

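Counts below are members called (adjusted p at or below 0.05). Genotype over all stages called 3: 5 in DESeq2, 0 in run 1, run 2 or run 3 alone, and 2 to 4 with 1 sample left out. There the Dnmt3b call was lost without Bar27, Bar22, Bar23, Bar9, Bar19, Bar21, Bar10 or Bar8. Genotype at E9.5 called 3: 1 in limma, 0 in run 3 alone and 2 to 3 with 1 sample left out. At E8.0 the count was 0 in each alternative and 0 to 0 with 1 sample left out. The interaction called 0: 2 in DESeq2, 1 with no low-count filter, 1 without blood-marker cells, and 0 to 1 with 1 sample left out. Stage E9.5 called 5: 2 in controls alone and 3 in mutants alone, both added after seeing the data, and 5 to 5 with 1 sample left out. Stage E8.5 called 1: 2 in DESeq2, 0 in limma, 0 with a run term, and 1 to 1 with 1 sample left out. Within lineages, stage called 20 (16 to 21 with 1 sample left out) and genotype 5 (1 in DESeq2, where 10 of the 40 pairs had no adjusted p, Tet1 and Tet2 in paraxial mesoderm among them, 3 with the stricter marker rule, 2 to 6 with 1 sample left out). Of the related lists, stage called 44 genes (10 in controls alone) and genotype 19 (32 in DESeq2, 34 with no filter, 1 in limma, 29 with samples of at least 20 cells, 10 in run 1 alone, 0 in run 3 alone). Levels by lineage called 44 of 60 pairs and, against other cells without blood-marker cells (added after seeing the data), 20 of 50. There Tet1 changed sign in cardiomyocytes (-0.055), lateral plate (-0.0058) and paraxial mesoderm (-0.075), Tet3 in cardiomyocytes (-0.19) and lateral plate (-0.0083), Hmga2 in endothelial cells (-0.25) and paraxial mesoderm (-0.13) and Dnmt3a in lateral plate (-0.027). No other called value changed sign in any alternative run. The cause of these shifts was not tested. Over all genes, genotype at E9.5 called 1766, from 58 (run 3 alone) to 2701 (DESeq2) and 603 without Bar23. Stage at E9.5 called 4070, from 651 (controls alone) to 5222 (run 1 alone). Stage at E8.5 called 3429, 131 with a run term and 510 without Bar3. Genotype over all stages called 2132, from 2 to 3274, genotype at E8.0 4, from 0 to 45, and the interaction 83, from 0 to 669. No paired analysis was possible because the genotype and stage groups share no replicate numbers in the labels. In the smallest sample depth limits all members, from 2 UMIs of Tet2 and 3 of Lin28b to 29 of Hmga2.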
